A study of Saccharomyces cerevisiae with 36 samples.

Results

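The proteins of the small (40S) subunit of the cytosolic ribosome were followed through the metabolic cycle of the budding yeast Saccharomyces cerevisiae. Members were the genes whose symbol in the platform's probe annotation is RPS, a number and an optional A or B, together with ASC1. A gene was kept where a probe set, the group of short array probes that reads 1 transcript, named it alone, and the probe set with the highest mean was used. This gave 34 genes of the 5656 with a probe set of their own. In the gene table of the R64 assembly 57 genes fit the rule. The others had no probe set of their own here and were left out of the counts.

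Total RNA from yeast in continuous culture was measured on 36 Affymetrix arrays, 1 for each of 12 positions in each of 3 successive cycles, with positions about 25 min apart. The 3 arrays of a position formed a group. The strain, the medium and the number of cultures are not given in the sources used here, so a p-value covers no more than the spread among these arrays, which may be technical. The labels name no genotype or treatment that differs between positions. The deposited values are intensities relative to the median of their own array, so a value of 20 is 20 times that median. In RNA from a whole culture, fewer cells that express a gene and less RNA per cell cannot be told apart.

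The small subunit binds mRNA, scans it for a start codon and holds the decoding centre where codons are read. Its proteins surround the 18S rRNA in a head, a body and a platform, and yeast encodes most of them in a pair of duplicated genes, A and B, whose products are nearly or fully identical. In growing yeast the ribosomal protein genes are among the most highly transcribed, driven by Rap1 with Fhl1 and its coactivator Ifh1, and they are shut down together when nutrients fail.

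The small subunit genes rose and fell together once per cycle. Their median course, on the log2 scale and relative to each gene's own mean, was lowest at position 2, at −0.81 ± 0.08 (SD, n = 3 cycles), and highest at position 9, at 0.75 ± 0.27. Between them it stood at −0.24 ± 0.03 at position 3 and at −0.05 ± 0.11 at position 7, and it had come down to 0.13 ± 0.08 by position 12. The mean over cycles was highest at position 9 for 30 of the 34 genes, against 17.5% of all genes, and lowest at position 2 for 30, against 14.5%. The exceptions at the top were RPS27A and RPS9A at position 8, RPS20 at position 10 and RPS26A at position 1, and at the bottom RPS9A, RPS14B and RPS27A at position 1 and RPS31 at position 7.

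**Figure D1:**
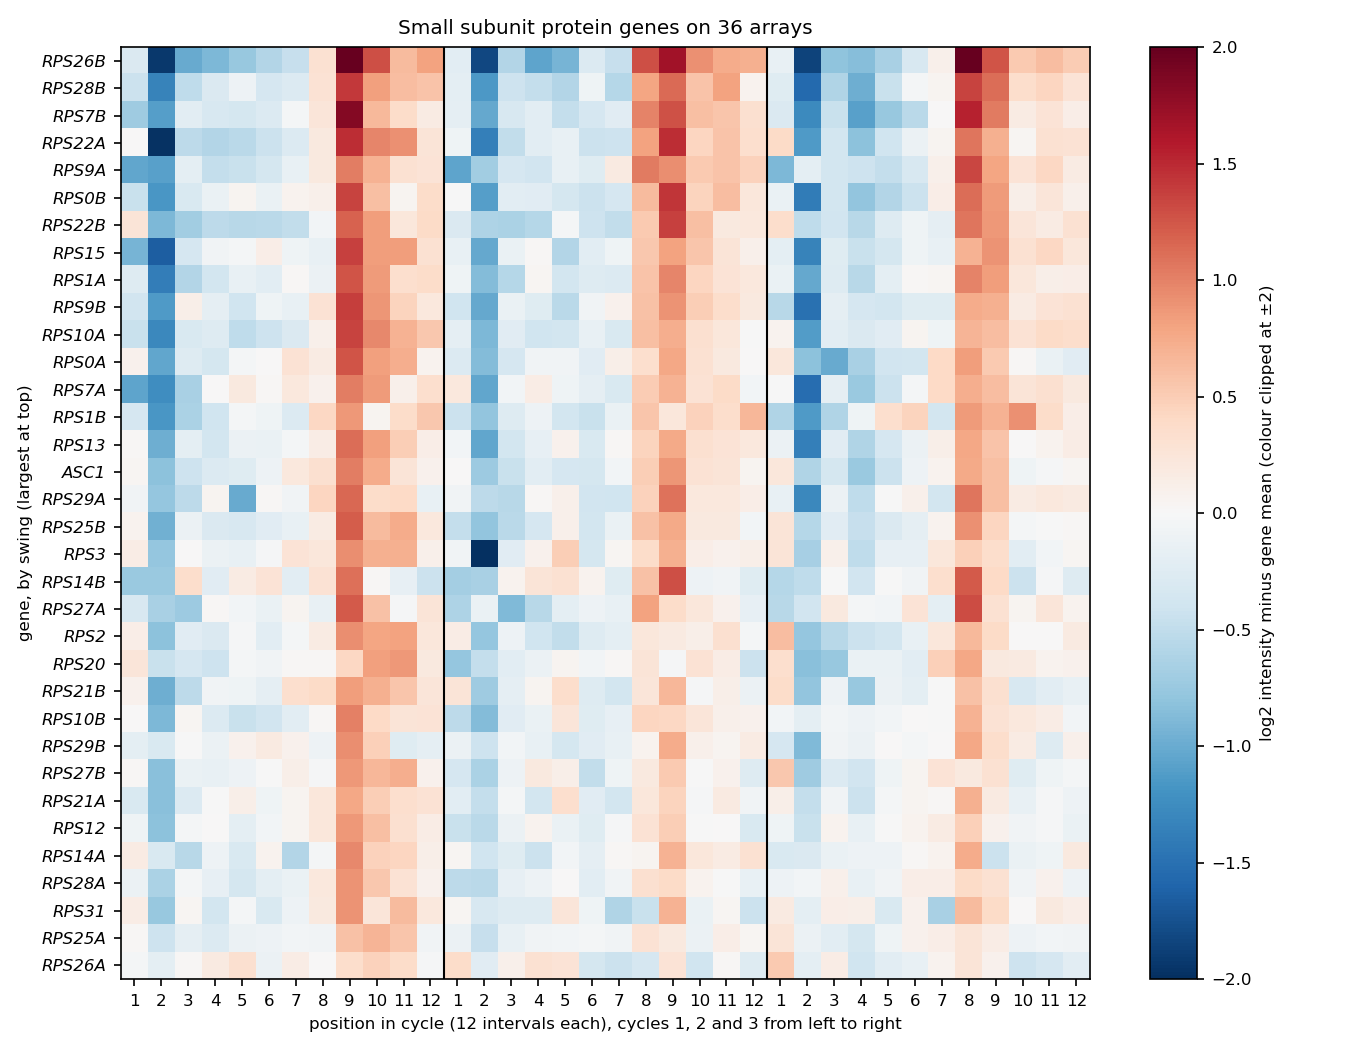
Heat map of log2 intensity minus the gene's own mean for 34 small subunit genes (rows, largest swing at the top) on 36 arrays (columns, position 1 to 12 in cycles 1, 2 and 3, parted by black lines). Most genes are blue at position 2 and red at position 9 of each cycle, and position 8 is paler in cycle 1 than in cycles 2 and 3. The bottom row, RPS26A, changes little.

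A cosine with a period of 12 intervals was fitted to each gene with limma, and p-values were adjusted by Benjamini-Hochberg over all 5656 genes. At an adjusted p under 0.05, 33 of the 34 small subunit genes cycled, against 78.8% of all genes, so most of the genome passes the same test. With a fitted peak between positions 8 and 10, 32 were called, against 16.9%. The median peak of the 33 was at position 9.13, with RPS14B earliest at 7.63 and RPS31 latest at 9.96. The swing, which is the log2 distance from the fitted trough to the fitted peak, ran from 0.47 to 2.58 among the called genes, and its median over all 34 was 1.04, against 0.77 over all genes. For 18 members it reached at least 2-fold, against 38.1%.

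Contrasts between single positions, in a limma fit with 1 level for each position, gave the size of the steps. The positions were chosen with earlier results of these data known, so the counts describe the course. Position 9 was higher than position 3 for 32 of the 34 genes, against 23.9% of all genes, and lower for 0, against 23.6%. RPS3 and RPS26A did not pass. All 3 arrays of position 9 lay above all 3 of position 3 for 32 genes, against 23.2%, RPS14A and RPS26A being the exceptions. The median difference was 1.08 in log2 for the members and 0.02 for all genes. From position 6 to position 9, 28 rose, against 25.3%, and 0 fell, against 20%. From 9 to 12, 22 fell, against 10.6%, and 0 rose, against 8.04%, with a median of −0.64. That last count was 9 without cycle 1, 0 without cycle 2 and 7 after quantile normalization. Without cycle 2 the count for 9 against 3 was 21 and that for 9 against 6 was 17, while the members' median difference of 9 minus 3 was 1.05. Of all genes, 69.2% cycled without cycle 1, 70.1% without cycle 2 and 78.4% after quantile normalization, against 78.8%. Shares of all genes for the contrasts in these runs are not given here. A loss among the members cannot be told apart from a general loss of calls.

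Position 2 was taken as the low point after the courses had been seen, so the following counts are descriptions too. Position 9 exceeded position 2 in 33 of the 34 genes by the same fit, against 25.6% of all genes, and was lower in 0, against 27%, with a median of 1.57. All 3 arrays of position 9 lay above all 3 of position 2 for 33 genes, against 23.9%, RPS14A being the exception. From position 1 to position 2, 20 fell, against 10.2%, and 0 rose, against 8.24%. From 2 to 3, 11 rose, against 1.34%, and 0 fell, against 1.41%. The median log2 step was −0.76 into position 2 and 0.54 out of it.

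Cycles differed in where the highest array fell. In cycle 1 it was at position 9 for 31 genes, against 29.6% of all genes, and in cycle 2 for 26, against 18.4%. At position 8 it was for 0 genes in cycle 1, against 3.22%, and for 4 in cycle 2, against 19%. In cycle 3 it was at position 8 for 30, against 28.4%, and at position 9 for RPS15 alone, against 7.97%. Position 9 stood above position 8 in 34, 27 and 2 genes in cycles 1, 2 and 3, against 53%, 54.5% and 50.3%, and the median log2 difference of 9 minus 8 was 0.96, 0.32 and −0.26. Each of these is 1 array per cycle, and the difference was not tested by itself. The test of swing and peak between cycles, over all genes, called 0 of the 34, against 0.0354%, and 0 at an unadjusted p under 0.05, against 4.61%. Levels between cycles likewise gave 0, against 0.053%, and 0 unadjusted, against 5.73%.

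**Figure D2:**
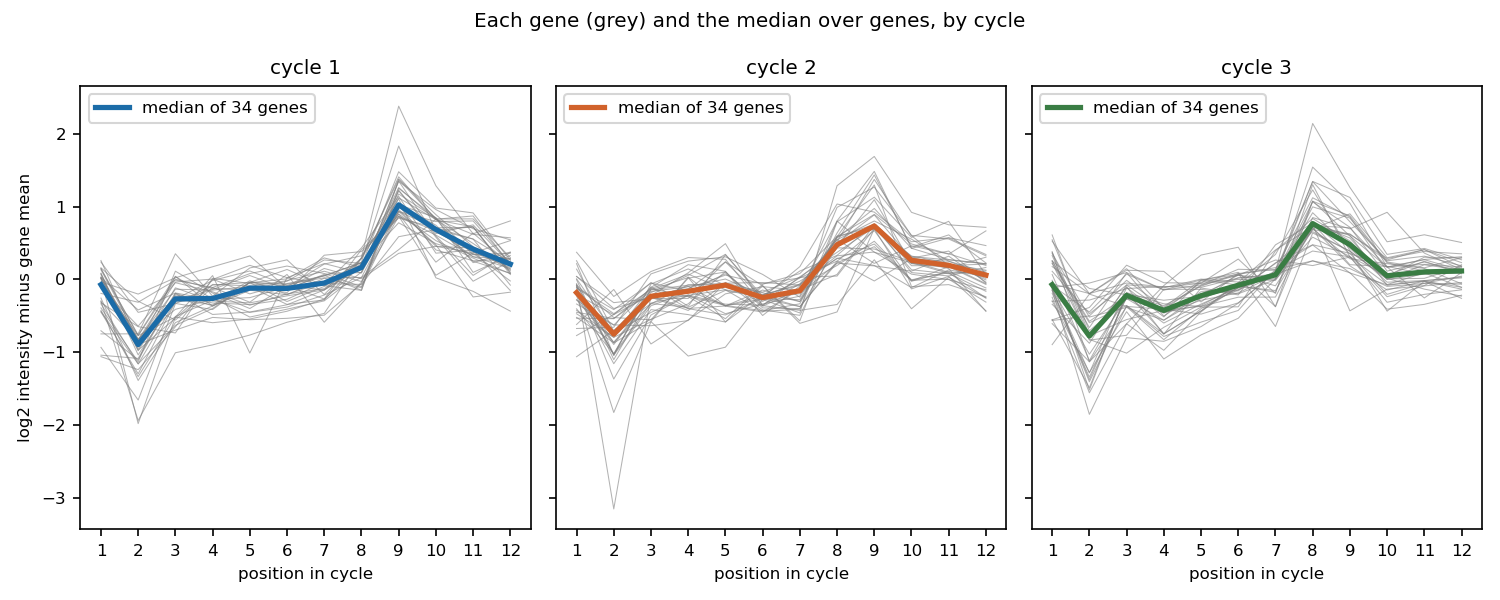
Log2 intensity minus the gene's mean (vertical axis) against position (horizontal axis) in each cycle, with 34 genes in grey and their median in colour. The median peaks at position 9 in cycles 1 and 2 and at position 8 in cycle 3, and the single grey line far below the others at position 2 of cycle 2 is RPS3.

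The low point stayed at position 2 for most genes. The lowest array was at position 2 for 30, 25 and 23 genes in cycles 1, 2 and 3, against 13.4%, 12.7% and 12.6%, and for 21 genes in all 3 cycles, against 4.99%. The median swing, fitted within each cycle, was 1.22, 0.94 and 0.97, and the median peak 9.31, 9.23 and 8.86.

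Swings ranged widely among genes whose proteins are present once per ribosome. RPS26B had the largest, 2.58 ± 0.25 (SE, 36 arrays), followed by RPS28B at 1.72 ± 0.18, RPS7B at 1.67 ± 0.19, RPS22A at 1.64 ± 0.21, RPS9A at 1.41 ± 0.17 and RPS0B at 1.39 ± 0.19. At the other end stood RPS26A at 0.03 ± 0.14, RPS25A at 0.47 ± 0.10, RPS31 at 0.47 ± 0.16 and RPS28A at 0.57 ± 0.11. Both ends therefore hold 1 gene each of the RPS26 and RPS28 pairs. The mean intensity was 5.02 for RPS26B and 56.9 for RPS26A, and 22.1 for RPS28B and 20.5 for RPS28A. Whether the brightness of a probe set bears on its swing was not tested. Of the 34 genes, 16 were read on probe sets whose names carry _s_, _f_, _i_, _r_ or _g_, marks that Affymetrix gives where probes could not all be chosen by its usual rules of number and uniqueness. Where the probes of a set are shared, the signal of a near-identical paralogue cannot be told apart from the gene's own. Which of the marked sets share probes was not checked. The median swing was 1.04 on marked and 1.01 on unmarked sets. How far such shared signal moves the values was not tested.

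**Figure D3:**
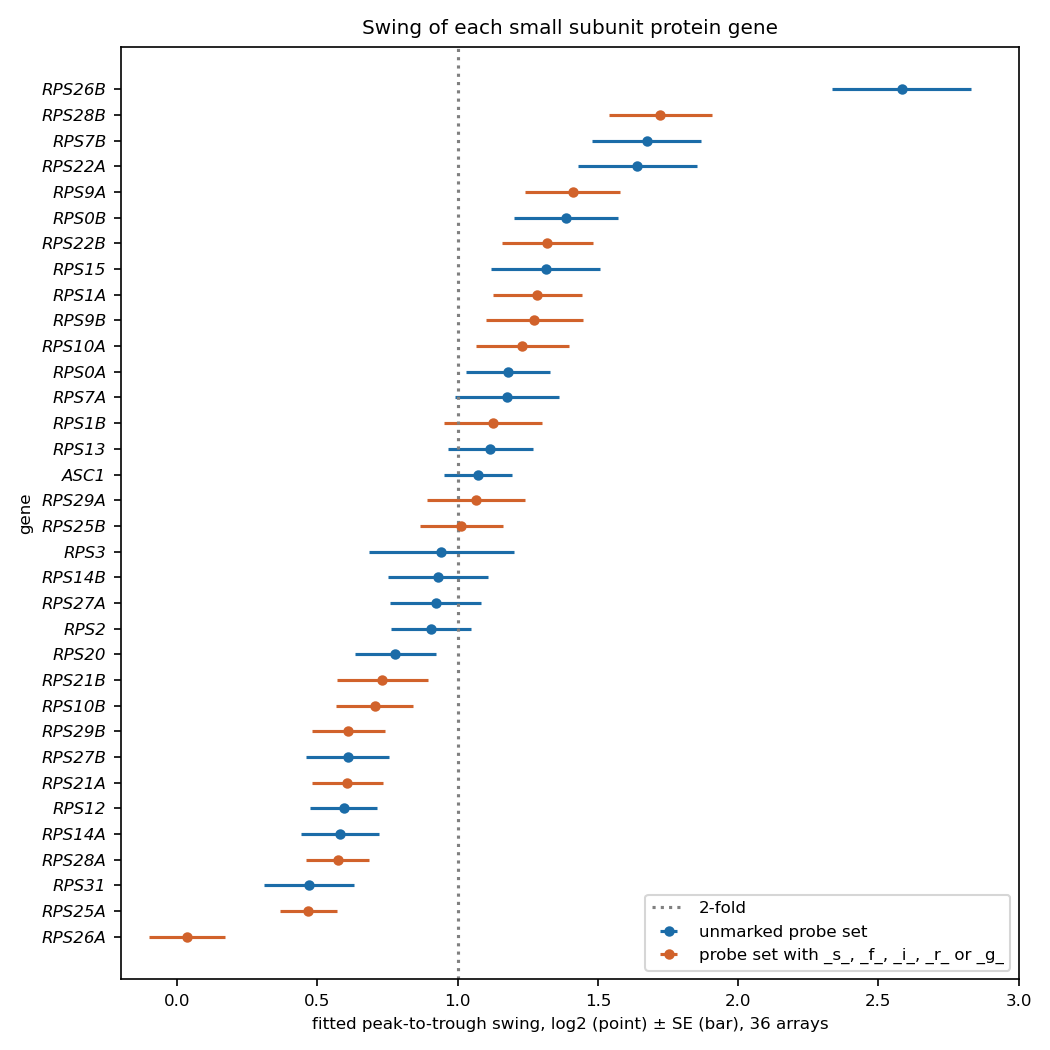
Fitted peak-to-trough swing in log2 (horizontal axis; point and SE bar, 36 arrays) of 34 genes (vertical axis), blue for unmarked and orange for marked probe sets, with a dotted line at 2-fold. RPS26B lies at 2.58, far to the right of the others, and RPS26A at 0.03.

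Among the 8 members without a partner, RPS2 and RPS3 line the channel through which mRNA enters. Rps2, the counterpart of bacterial S5, affects decoding fidelity. On the arrays of position 2 RPS2 read 16.6, 17.1 and 17.1 in cycles 1 to 3, and on those of position 9 56.0, 33.3 and 38.4. The groups did not overlap, all 3 low values lay within 1 unit of each other, and the swing was 0.91 ± 0.14 (limma, adjusted p = 3.2e-06).

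Rps3 binds the head at the mRNA entry site and is escorted to the ribosome by the chaperone Yar1. RPS3 read 25.1, 4.80 and 27.1 at position 2 and 81.8, 70.5 and 55.0 at position 9. The array of cycle 2 stood far below its fellows at position 2, and the groups did not overlap. The swing of 0.94 ± 0.26 (limma, adjusted p = 0.0049) was 0.65 without that array. Without cycle 1, and so with fewer arrays, it was 0.95 (adjusted p = 0.058). Position 9 exceeded position 3 by 0.71 ± 0.36, short of the threshold (limma, adjusted p = 0.11), and passed it without the low array (adjusted p = 0.0077). Whether this value is a fault of that array was not tested.

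Head proteins followed the same course with unequal swings. RPS15, whose protein is needed to export the 40S precursor from the nucleus, read 6.42, 9.97 and 8.00 at position 2 and 52.6, 35.5 and 38.0 at position 9. That is a 5.17-fold rise of the means with no overlap, and the swing was 1.31 ± 0.19 (limma, adjusted p = 1.0e-06). It was also the 1 member of 34 called for a second harmonic, a course with a 6-interval period (0.62 ± 0.17, limma, adjusted p = 0.032), against 12.4% of all genes. That call was lost with any cycle left out. RPS20, whose protein is ubiquitinated by Hel2 when ribosomes collide, read 14.5, 14.2 and 11.1 at position 2 and 26.4, 19.6 and 22.9 at position 9. Its highest array was at position 11, 10 and 8 in the 3 cycles, and its swing was 0.78 ± 0.14 (limma, adjusted p = 4.7e-05).

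RPS12, which encodes a protein of the beak at the tip of the head, had values of 18.6, 22.8 and 24.2 at position 2 and of 60.1, 46.3 and 35.1 at position 9. The groups did not overlap, and the swing was 0.59 ± 0.12 (limma, adjusted p = 1.4e-04). RPS31 encodes its beak protein fused to ubiquitin, which is cleaved off. Its values were 20.2, 27.5 and 29.9 at position 2 and 64.0, 55.6 and 44.9 at position 9, again apart. The swing of 0.47 ± 0.16 (limma, adjusted p = 0.028) was 0.26 without cycle 1 (adjusted p = 0.46). Without cycle 3 it was 0.54 and also missed the threshold (adjusted p = 0.065).

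ASC1 encodes the yeast counterpart of RACK1, a scaffold on the head that takes part in the response to stalled ribosomes. It read 21.0, 22.5 and 24.7 at position 2 and 75.7, 68.9 and 56.7 at position 9. The groups lay far apart, the means differing 2.95-fold, and the swing was 1.07 ± 0.12 (limma, adjusted p = 4.0e-09). Its second probe set gave 1.09 ± 0.13 with a peak at 9.05, close to the 9.26 of the set used. RPS13, a body protein and counterpart of bacterial S15, read 12.1, 11.6 and 9.20 at position 2 and 52.0, 40.6 and 35.5 at position 9. It rose 3.89-fold between the means, without overlap, and had a swing of 1.12 ± 0.15 (limma, adjusted p = 2.1e-07).

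Paralogue pairs were compared through log2 A minus log2 B on each array, which compares courses and not levels. The same limma test ran over all 33 A and B pairs of the table, without a trend because the mean of a difference is no intensity. Apart from NHP6 and COX5, these pairs encode proteins of the small or the large cytosolic subunit. The share over all 33 is therefore no background of paralogues in general. Of the 13 small subunit pairs 7 differed in course, against 48.5% of the 33, a share near that of all pairs. The contrast of position 9 with position 3 was called for 5, against 36.4%, and that with position 2 for 9, against 51.5%. The median swing of the difference was 0.51, against 0.44 for the other 20 pairs. The pair test of level between cycles gave 0 of 13, against 0%, with RPS9 alone at an unadjusted p under 0.05, against 12.1%.

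**Figure D4:**
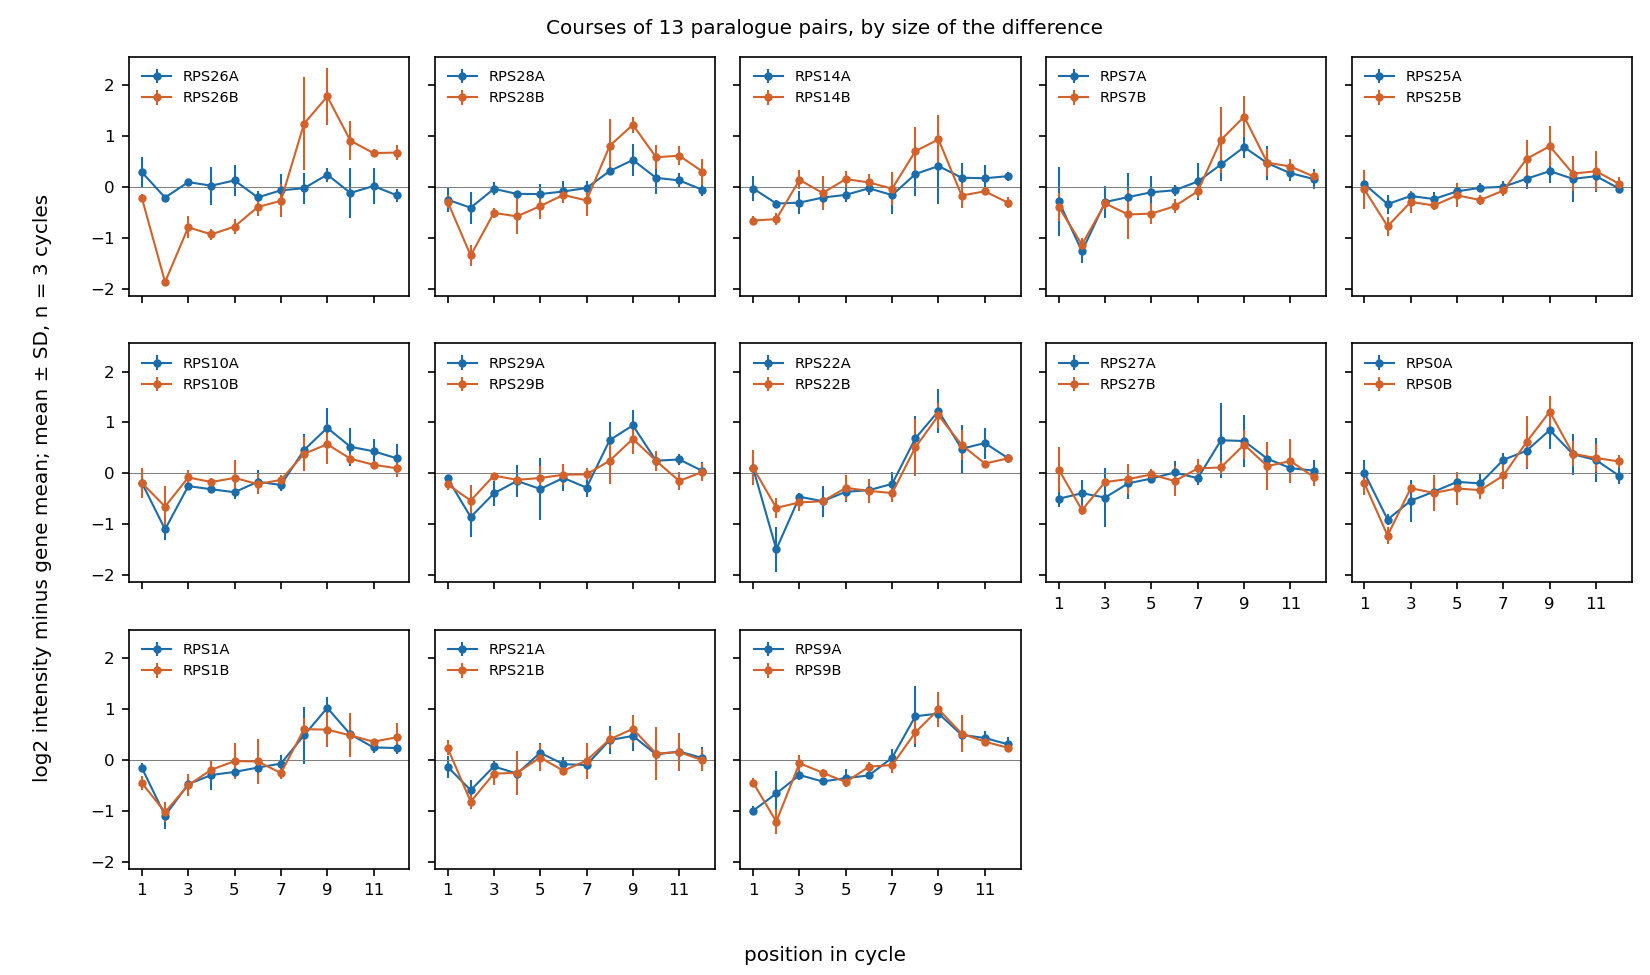
Courses of the 13 paralogue pairs, A in blue and B in orange, as log2 intensity minus the gene's mean (vertical axis; mean ± SD, n = 3 cycles) against position (horizontal axis), ordered by the size of the difference. RPS26A is nearly flat beside RPS26B, RPS14B falls back by position 10 before RPS14A does, and the last panels overlap.

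The RPS26 pair differed most. Rps26 sits at the channel through which mRNA leaves, near the end of the 18S rRNA. RPS26B read 0.954, 1.03 and 1.01 at position 2 and 19.9, 12.3 and 9.17 at position 9, a 13.8-fold difference of the means, and in cycle 3 its highest array was the 16.9 of position 8. The 3 arrays of position 2 are close together and far below those of position 9. RPS26A read 48.6, 47.5 and 48.8 at position 2 and 71.6, 67.4 and 59.5 at position 9. These positions did not overlap either, but the gene was also high at position 1, with 72.3 in cycle 2 and 80.4 in cycle 3. Its swing did not pass the threshold (limma, adjusted p = 0.97).

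The difference between RPS26A and RPS26B swung by 2.59 ± 0.23 (limma, adjusted p = 5.7e-12), and in each cycle by 2.48, 2.88 and 2.48. RPS26A has another probe set with another course. The set used is marked _i_, and the second, marked _f_, read 25.6, 25.8 and 22.1 at position 2 and 52.9, 44.1 and 42.6 at position 9, without overlap. When every probe set was tested, it passed with 0.58 ± 0.11 in log2 and peaked at 9.19 (limma, adjusted p = 1.1e-04). With the mean of both sets RPS26A missed the threshold (swing 0.29, adjusted p = 0.090), and the pair difference was 2.30. After scaling to the bacterial spikes the set used passed, with a swing of 0.55 (adjusted p = 0.0072). The spikes themselves swung by 0.53, and scaling puts the inverse of their course into every gene. This pass therefore cannot show that RPS26A cycles.

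**Figure D5:**
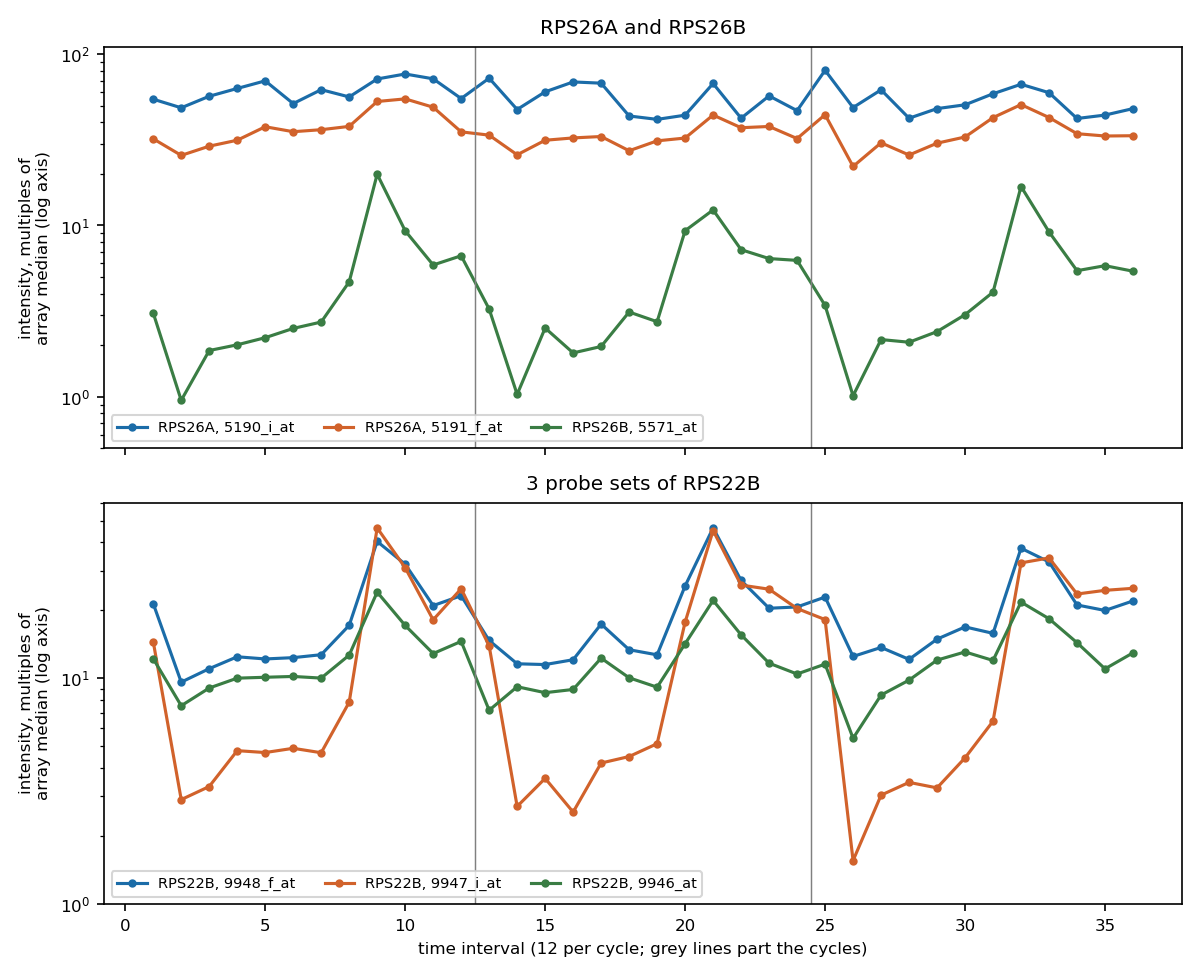
Intensity in multiples of the array median (vertical log axis) over the 36 intervals (horizontal axis; grey lines part the cycles) for both probe sets of RPS26A with RPS26B, and for the 3 probe sets of RPS22B. RPS26B falls to about 1 at position 2 of each cycle, and the sets of RPS22B cover unlike ranges.

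RPS28 came next. Rps28 lies beside Rps26 at the mRNA exit, and the protein made from RPS28B is known to bind its own mRNA and, through Edc3, to speed its decay. RPS28B read 7.72, 8.74 and 6.62 at position 2 and 51.9, 42.7 and 42.6 at position 9. RPS28A read 12.8, 13.8 and 19.4 at position 2 and 37.4, 26.0 and 24.9 at position 9. Both genes showed no overlap between these positions, with the means 5.95-fold apart for RPS28B and 1.92-fold for RPS28A. The difference swung by 1.17 ± 0.16 (limma, adjusted p = 3.9e-07), 0.71, 1.18 and 1.71 in the 3 cycles. Both are on marked sets. The second set of RPS28B swung by 1.09 ± 0.17, against 1.72 on the set used, so the size of its swing depends on the probe set. The second set of RPS28A peaked at 6.74. With the mean of both sets position 9 of RPS28A did not pass against position 3 (0.28, adjusted p = 0.33).

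RPS14A and RPS14B differed in course. Their protein, on the platform, binds the RPS14B pre-mRNA and represses its splicing. RPS14B read 7.81, 8.23 and 8.88 at position 1, 28.4, 32.4 and 17.3 at position 9, and 13.4, 12.3 and 9.72 at position 10. It stood lower at position 10 than at position 9 in every cycle, and in cycle 3 its highest array was the 30.9 of position 8. RPS14A read 16.3, 15.0 and 11.8 at position 1, 28.3, 23.7 and 10.8 at position 9, and 20.0, 16.9 and 13.3 at position 10. Its position 9 overlapped both other positions, the array of cycle 3 being the lowest of that cycle. The fitted peaks were 7.63 ± 0.37 for RPS14B and 9.60 ± 0.46 for RPS14A. By cycle they were 7.57, 7.61 and 7.70 for RPS14B and 10.13, 9.71 and 7.63 for RPS14A, so that in cycle 3 they nearly coincided and both genes had their highest array at position 8. The difference swung by 0.81 ± 0.17 (limma, adjusted p = 3.1e-04). Both sets are unmarked, but RPS14A was not called without cycle 2 (0.52, adjusted p = 0.060). RPS14B and RPS22A are neighbours in the R64 table.

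RPS7 encodes a body protein that Not4 ubiquitinates. RPS7B read 4.93, 5.21 and 4.37 at position 2 and 38.0, 25.7 and 22.0 at position 9. RPS7A read 9.29, 10.6 and 7.65 and then 44.8, 35.6 and 33.9. Neither gene's groups overlapped, and the means differed 5.91-fold for RPS7B and 4.15-fold for RPS7A. The difference swung by 0.58 ± 0.15 (limma, adjusted p = 0.0038), a call lost without cycle 2 (0.49, adjusted p = 0.14). This pair was also the 1 of 13 called for a second harmonic, against 3.03% of pairs. Both sets are unmarked, and a second unmarked set of each gave 1.17 for RPS7A and 1.81 for RPS7B.

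RPS25 and RPS10 encode head proteins, Rps25 being needed for initiation at some viral internal entry sites. RPS25B read 11.1, 12.4 and 14.4 at position 2 and 50.0, 36.3 and 28.9 at position 9. RPS25A read 24.0, 23.1 and 29.4 and then 48.1, 36.6 and 35.5. All 3 arrays of position 9 were above those of position 2 in both genes. The difference swung by 0.54 ± 0.11 (limma, adjusted p = 3.0e-04), but with the mean of both probe sets of each gene it was 0.30 and not called (adjusted p = 0.063). RPS10A read 7.94, 10.5 and 9.01 and then 49.7, 32.2 and 30.0. RPS10B read 7.49, 7.64 and 12.2 and then 28.3, 18.7 and 17.0. Neither overlapped, the A gene had the larger swing, and the difference was 0.54 ± 0.12 (limma, adjusted p = 7.0e-04). All 4 genes are on marked sets.

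RPS29 encodes a zinc-binding head protein, and its A gene swung more, 1.07 ± 0.17 against 0.61 ± 0.13. The difference of 0.51 ± 0.15 (limma, adjusted p = 0.011) was 0.37 without cycle 1 (adjusted p = 0.16) and 0.53 without cycle 3 (adjusted p = 0.072), and was called in neither. Both genes are on marked sets. Of the 7 pairs called, the B gene swung more in RPS26, RPS28, RPS14, RPS7 and RPS25, and the A gene in RPS10 and RPS29.

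The other 6 pairs did not pass. RPS22, a body protein pair, depended on the probe set. RPS22A read 9.19, 14.1 and 16.6 at position 2 and 101.3, 101.6 and 59.7 at position 9. RPS22B read 9.62, 11.6 and 12.5 and then 40.4, 46.4 and 32.8. Neither gene overlapped between these positions, and A minus B lay at −1.09, −0.74 and −0.61 around its mean at position 2, its lowest value in each cycle. The cosine test of the difference gave 0.38 ± 0.14 (limma, adjusted p = 0.073), but 0.73 on unmarked sets (adjusted p = 9.4e-04), 0.48 after quantile normalization (adjusted p = 0.013) and 0.45 with the mean of all sets (adjusted p = 0.029).

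RPS22B has 3 probe sets with unlike ranges. The set used, marked _f_, swung by 1.32 ± 0.16. The set marked _i_ read 2.90, 2.71 and 1.56 at position 2 and 46.4, 45.2 and 34.2 at position 9, with a swing of 3.59 ± 0.29. The third set is unmarked and swung by 0.97 ± 0.14. All 3 had their highest mean at position 9, so the gene's swing depends on the probe set chosen.

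RPS9 and RPS21 had the smallest cosine differences, but not the smallest steps. Rps9, the counterpart of bacterial S4, takes part in decoding fidelity, and Rps21 sits beside Rps0 on the body. RPS9A read 5.19, 6.81 and 9.61 at position 2 and 22.4, 21.0 and 19.2 at position 9. RPS9B read 8.59, 9.27 and 6.70 and then 49.1, 35.0 and 30.9. The groups were apart in both, but RPS9A had its lowest mean 1 interval earlier than RPS9B, with 5.36, 5.28 and 5.93 at position 1. The cosine difference was 0.15 ± 0.16 (limma, adjusted p = 0.68). From position 1 to position 2, A minus B went up by 1.10 ± 0.22 in RPS9 and by 0.60 ± 0.16 in RPS21, steps picked after the courses were seen. RPS21A read 30.0, 38.2 and 38.6 and then 91.7, 73.1 and 60.9, without overlap. RPS21B read 29.6, 35.5 and 33.7 and then 104.0, 92.5 and 72.2, also without overlap. Their difference was 0.16 ± 0.11 (limma, adjusted p = 0.40), and all 4 genes are on marked sets.

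In the remaining pairs, RPS0, RPS1 and RPS27, the differences were 0.24 ± 0.15, 0.17 ± 0.16 and 0.33 ± 0.20, with adjusted p-values of 0.36, 0.63 and 0.33 by the same limma test. Single steps, picked after the values were seen, did differ in RPS0 and RPS27. For RPS0, A minus B changed by −0.68 ± 0.23 from position 2 to position 9 (limma, adjusted p = 0.015). For RPS27 it went up by 0.90 ± 0.31 from position 1 to position 2 (limma, adjusted p = 0.018). Rps0 is needed for the last cut of the 18S precursor, Rps1 lies on the platform, and Rps27 is a zinc-binding platform protein. RPS0B read 11.8, 12.3 and 9.93 at position 2 and 67.2, 71.3 and 47.8 at position 9, which did not overlap. RPS0A and RPS0B both cycled, with swings of 1.18 ± 0.15 and 1.39 ± 0.19, as did RPS1A and RPS1B, with 1.28 ± 0.16 and 1.13 ± 0.17. RPS27A peaked at 8.71 with 0.92 ± 0.16, and RPS27B at 9.00 with 0.61 ± 0.15. Without cycle 1 the swings of RPS27B (0.45, adjusted p = 0.059) and RPS21B (0.49, adjusted p = 0.086) missed the threshold.

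When each probe set was tested on its own, 64.2% of all sets cycled. The 15 further sets of the members all did, and 12 had a peak between positions 8 and 10. Both counts include the second set of RPS10B, whose mean of 0.0764 is close to the pseudocount of 0.0516. The share of all probe sets with a peak between positions 8 and 10 is not given here. Among genes it was 16.9%. Probe sets that name both genes of a pair have no single owner. The 4 such sets of RPS16A and RPS16B, singled out after their values were seen, had swings of 0.36, 0.56, 1.46 and 2.38, of which the smallest did not pass the threshold (limma, adjusted p = 0.50). All 4 had their highest mean at position 9.

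Genes that make, escort, bind or control the small subunit were set beside it, and their counts stand against the 78.8% of all genes that cycled, the 38.1% that did so by at least 2-fold and the 16.9% with a peak between positions 8 and 10. The large subunit proteins had 48 of 48 called, 22 by at least 2-fold and 48 with a peak between positions 8 and 10, with a median swing of 0.97 and a median peak at 9.06. They ran from RPL7B, 3.41 ± 0.30, to RPL10, 0.31 ± 0.11. Factors that assemble and export the 40S subunit had 20 of 21 called, a median swing of 1.50 and a median peak at 8.52. KRR1, for processing of the 18S precursor, swung by 2.55 ± 0.37, and RRP7, of the early precursor, by 0.64 ± 0.27 (limma, adjusted p = 0.089).

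Chaperones of nascent chains and of small subunit proteins had 5 of 7 called, a share below that of all genes, and all 5 peaked between positions 8 and 10. YAR1, the chaperone of Rps3, swung by 1.60 ± 0.23, and EGD1, of the nascent polypeptide-associated complex, by 0.19 ± 0.13 (limma, adjusted p = 0.38). Initiation factors that bind the subunit, with the preservation factor Stm1, had 13 of 13 measured called, with a median peak at 9.35, from the recycling factor RLI1 at 1.84 ± 0.24 to HCR1 at 0.33 ± 0.11.

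The small subunit of the mitochondrial ribosome had 31 of 31 called by at least 2-fold with 0 peaks between positions 8 and 10. Its median swing was 2.00 and its median peak at 11.8, from MRPS8 at 3.08 ± 0.19 to MRPS16 at 1.29 ± 0.12. Regulators of ribosomal protein genes had 14 of 17 called, a share near that of all genes, with a median swing of 0.55. Their peaks were spread round the cycle, 2 of them between positions 8 and 10, and SCH9 had the smallest swing, 0.18 ± 0.17 (limma, adjusted p = 0.58). CRF1, a corepressor that competes with Ifh1 for Fhl1, had the largest, 4.08 ± 0.31, with its highest mean at position 2 and its lowest at position 12. The fitted peak of CRF1 was at 4.34. The activators RAP1, FHL1 and IFH1 are named here after their values were seen. RAP1 swung by 0.55 ± 0.13 with its highest mean at position 2 and its lowest at position 7. FHL1 did not pass, with 0.22 ± 0.15 (limma, adjusted p = 0.37). IFH1 swung by 1.32 ± 0.38 with its highest mean at position 8 and its lowest at position 2. Position 9 minus position 3 was 0.09 ± 0.50 for IFH1 (limma, adjusted p = 0.89). It was −0.06 ± 0.18 for RAP1 and −0.13 ± 0.25 for FHL1 (limma, adjusted p = 0.81 and 0.70).

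Because each array is scaled to its own median, a rise is relative to the other genes of that array. The 9 bacterial spike probe sets had a swing of 0.53 ± 0.17, peaked at 3.45 and stood 0.40 lower in log2 at position 9 than at position 3. Scaled to them, the median difference of 9 minus 3 was 0.40 for all genes and 1.49 for the small subunit genes, and position 9 was higher than 3 in 33 of 34. The members' median swing became 1.59, 33 reached at least 2-fold, the rise from 6 to 9 was called for 16 and the fall from 9 to 12 for 0. Because the spikes swing, scaling to them puts the inverse of their course into every gene. Under it 68.7% of all genes cycled, against 78.8% before. Shares of all genes for the members' counts under this scaling are not given here. The 18S rRNA control sets had a swing of 0.18 ± 0.18, the 25S rRNA sets one of 0.37 ± 0.16 with a peak at 12.3, the ratio of the actin 3′ to the 5′ set one of 0.02 ± 0.06, and their part in the result was not tested.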

How the data were processed

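The deposited intensities are 1 table of 9335 probe sets on 36 arrays, on a linear scale with a median of 1 on each array, from the values. The sources used here do not say how the authors summarised probes, and the number of arrays limits the precision. Of the probe sets 6504 named 1 gene and 60 were controls. Symbols followed the platform annotation, checked against the R64 gene table, which changed 0. Members, lists and tests were chosen with earlier results of these data known.

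Values were taken as log2(value + 0.0516), the pseudocount being the 10th percentile of positive values, so folds of dim genes are understated. Cosine, position and cycle effects were tested with limma 3.58.1 in R 4.3.3, with a mean-variance trend (none for pairs) and Benjamini-Hochberg adjustment at 0.05 over 5656 genes or 33 pairs. Figures used matplotlib in Python 3.11.15. The tests were checked on simulated data with known changes. Position 2 as the low point, every probe set as a feature and the fit without 1 array were added after the data were seen.

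Named genes were the 6 members with the largest and the 4 with the smallest swing, members not called, the 6 pairs that differed most and the 2 that differed least, members without a partner, and the extremes of each list. The other pairs, the joint sets of RPS16A and RPS16B, and RAP1, FHL1 and IFH1 were added after their values were seen. Some genes that fit the rule are not reported here.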

Additional observations from a re-analysis of the deposited data

How the results depend on the processing

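Each count and median was computed again under 13 to 16 alternatives. The share of all genes that cycled ran from 68.7% to 81.9% over the settings. Shares of all genes for the other counts are not given here. Both cycle tests and the pair test of level gave 0 calls in every alternative run. After quantile normalization the counts were 3 for the second harmonic and 7 for position 12 against position 9. After scaling to a trimmed mean, and with the mean of all probe sets of a gene, the second harmonic had 3. Scaling to the bacterial spikes gave 33 with at least 2-fold swing, 3 with a second harmonic, 16 for position 9 against position 6, 0 for position 12 against position 9 and a median swing of members of 1.59. Without marked probe sets 19 members and 5 pairs were left, of which 19 cycled, 9 by at least 2-fold, with 18 for position 9 against position 3, 15 for 9 against 6, 13 for 12 against 9, and 3 pair courses; the fewer genes account for the lower counts of cycling. Leaving out each cycle in turn gave 29 to 32 for cycling, 15 to 20 for at least 2-fold, 0 to 0 for the second harmonic, 21 to 30 for 9 against 3, 17 to 30 for 9 against 6, 0 to 19 for 12 against 9 and 6 to 6 for pair courses, and median swings of 0.97 to 1.06. For the other settings the cause was not tested. The next counts are of combinations of a member, or a pair, with an alternative. The swing of single members kept its side of the threshold in 488 combinations and lost or gained it in 6 and 1. Position 9 minus position 3 did so in 467, 26 and 2, and the swing of pair differences in 167, 4 and 3. Cycle numbers were not taken to pair the arrays, because not every correlation of deviations within a cycle was above 0.1 (70 of 198, median 0.02), against 93 of 396 between cycles. That rule is strict, so failing it does not show that the arrays of a cycle are unrelated. As a hint from the data, not the design, 20 of 36 arrays correlated best with their own cycle. With the cycle as a replicate block the counts were 33 for cycling, 32 for 9 against 3, 28 for 9 against 6, 22 for 12 against 9 and 7 pair courses, as without it, and the 2 cycle tests, which test that term, were not run with it. Member probe sets were bright, the dimmest at percentile 73.5 of all genes.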
